A study of Mus musculus with 18 samples.

Results

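The RNA of the monosome fraction of wild-type (WT) mouse macrophages was compared with the total RNA of the same kind of culture, using 6 of the 18 libraries of the series: 3 of WT total RNA and 3 of WT monosome RNA, chosen by their genotype and fraction labels. The cells had been grown from bone marrow for 6 days with 20 ng/ml of M-CSF, the growth factor that turns marrow progenitors into macrophages. All 18 libraries, controls included, came from cells given 100 ng/ml of lipopolysaccharide (LPS) for 8 h, so none shows resting cells. LPS is a bacterial cell wall component that sets off the inflammatory response. The monosome fraction was collected after polysome profiling, in which a lysate is separated by the number of ribosomes on each mRNA. For reference, 3 libraries of WT polysome RNA are set beside the result, and the comparison was repeated in 6 libraries of total and monosome RNA from cells labelled as knockouts (KO) of Mkrn2, an RNA-binding E3 ubiquitin ligase. The labels give no age, sex or number of animals, and do not say whether the replicates were separate cultures. P-values therefore measure only the spread between these samples, which may be technical.

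A monosome is a single ribosome on an mRNA, and a polysome carries several. How many ribosomes an mRNA carries depends on how often translation starts, how fast ribosomes move and how long the reading frame is. Short reading frames have room for few ribosomes. Some mRNAs are held back from ribosomes by proteins or by sequence at their 5′ end: ferritin mRNAs by iron regulatory proteins that bind a hairpin called the iron-responsive element, and mRNAs of ribosomal proteins by a run of pyrimidines at the cap, the 5′ terminal oligopyrimidine (TOP) tract. A gradient fraction is defined by how fast particles sediment, so free particles of similar size can lie in it too.

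The libraries held 11402715 to 12746777 counts for WT total RNA and 9190034 to 12544587 for WT monosome RNA. Values are given as CPM, counts per 1000000 counts of a library after TMM scaling, a correction that sets the typical gene to no change. CPM of different genes are not compared here, since they also depend on transcript length. Log2 differences are monosome minus total, with the standard error (SE) of the fit. On this scale the median of all 12782 tested genes was -0.04. By library size alone it was -1.03. Each difference below is thus relative to the typical gene, and the amount of RNA in the fraction as a whole was not measured. Cells of the macrophage type were present in both fractions: 7 of the 8 macrophage markers were in the table and all 7 were detected, with summed unscaled CPM of 8253 to 9319 in total and 6217 to 6688 in monosome RNA. Of 7 neutrophil markers, S100a9, Ly6g, Elane and Mpo were at 0 in all 6 libraries, as were 4 of 5 erythroid markers. S100a8 was detected at 4.24 to 7.64 CPM, and Camp, at 0.129 to 0.558 CPM in total and 2.62 to 3.43 CPM in monosome RNA, was higher (2.94 ± 0.39). Unscaled sums for total and monosome RNA were 16.6 to 27.6 and 8.16 to 15 CPM for B cell markers, and 386 to 501 and 228 to 283 CPM for stromal markers. In such bulk samples fewer cells of a type and less RNA per cell cannot be told apart, and the part of these other cell types in the results was not tested.

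The sequence that ferritin mRNAs carry in their 5′ untranslated region (UTR) is shown first, because the heavy chain mRNA alone had the largest gain in share of counts among the 6 classes plotted. Capitals mark the 6-base loop of the iron-responsive element, flanked by the bases that pair to form its stem. The coordinates are those of GENCODE vM21 on GRCm38.
Fth1, chr19:9982732-9982760, plus strand: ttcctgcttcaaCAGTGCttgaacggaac
Ftl1, chr7:45459779-45459807, minus strand: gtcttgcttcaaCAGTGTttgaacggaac
Vti1b, chr12:79172406-79172434, minus strand: gaggtgcggctgCAGTGAtggcttcgggg
The first 2 belong to known iron-regulated mRNAs, encoding the ferritin heavy chain and the ferritin light chain. Vti1b, a vesicle fusion protein, is shown as a match without a known role in iron. The search was for C, 5 bases, the loop CAGTGN with a last base other than G, and 5 bases that pair with the first 5, G with U allowed, on the transcript strand. It matched 14 of 11446 5′ UTRs (0.122%).

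Fth1 RNA was the most prominent single species of the monosome libraries. Its share of library counts was 2.62%, 2.79% and 3.29% in the total RNA libraries and 16.1%, 16.9% and 16.7% in the monosome libraries, while the WT polysome libraries held 1.78% to 2.79%. The monosome libraries lay far above both other kinds, without overlap. An exact two-sided permutation test of 3 against 3 gave p = 0.1, the smallest that the design allows. Fth1 (ENSMUSG00000024661, chromosome 19, 9982703 to 9985092) had 20849, 21938 and 26001 CPM in total and 242838, 279598 and 264040 CPM in monosome RNA. This was an 11.4-fold difference, or 3.52 ± 0.16 (SE) on the log2 scale, with Benjamini-Hochberg adjusted p = 6.33e-11 by edgeR's quasi-likelihood test over all genes.

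Ftl1, whose product builds the ferritin shell with that of Fth1, had 6906, 8167 and 9467 CPM in total and 58871, 84595 and 78399 CPM in monosome RNA. The groups were again apart, with a log2 difference of 3.18 ± 0.42 (adjusted p = 6.93e-06). Gm10116, an Ftl1-like gene on chromosome 13 that carries the same element letters, differed by 4.26 ± 0.14. Reads of such near-identical copies may be divided between them by the authors' counting, so the 2 values are uncertain, and annotated exons of other genes overlap both. Neither ferritin mRNA lay high in polysome RNA, where the differences from total RNA were -0.37 for Fth1 and -0.40 for Ftl1.

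The other matching genes lay on both sides of the typical gene. The median over all 14 was 0.64, or -0.35 by library size alone, against -0.04 and -1.03 for all genes tested, and Vti1b had 1.46. Of 16 tested genes of ferritin and iron handling, 6 were higher and 7 lower, with a median of -0.15. Of all genes tested 31.4% were higher and 31% lower. The transferrin receptor Tfrc, whose mRNA carries such elements in its 3′ UTR, had 0.61 ± 0.11, which turned to -0.39 by library size alone. Ireb2, the iron regulatory protein 2, had -0.90 ± 0.13.

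**Figure D1:**
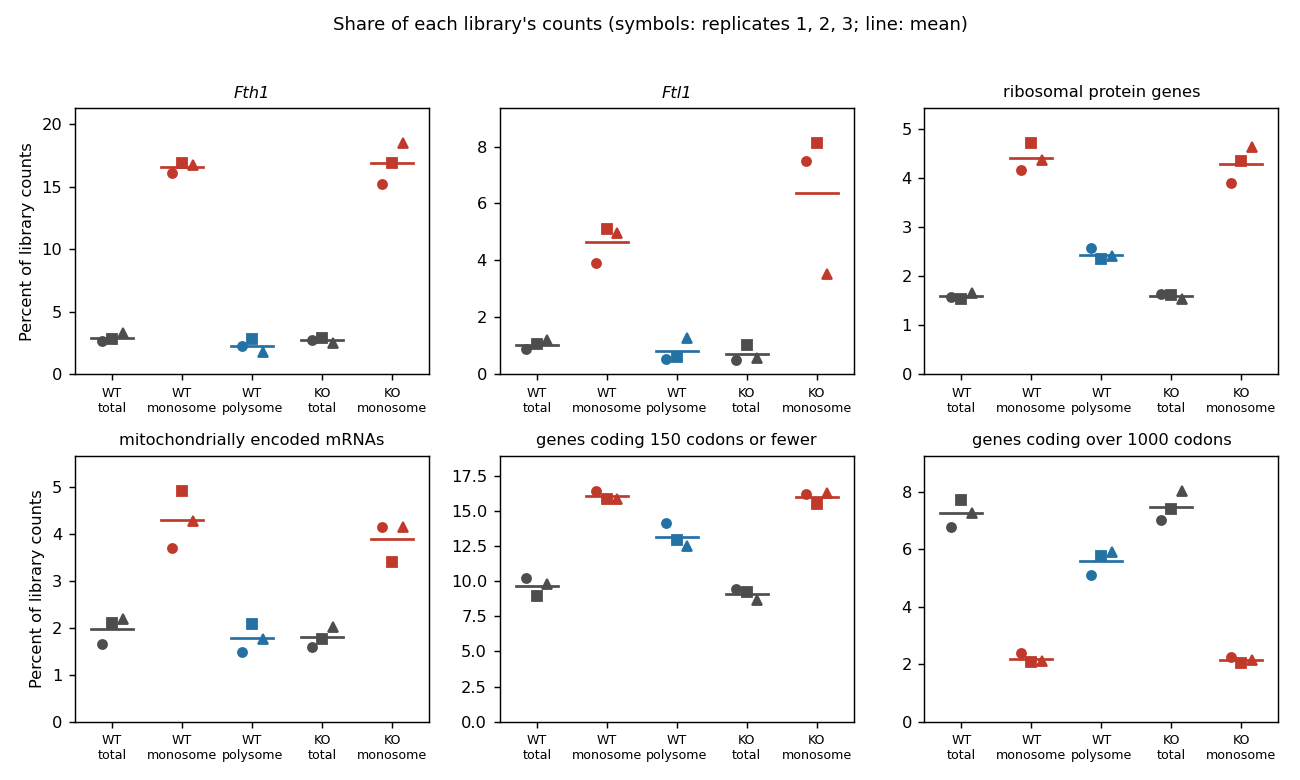
Share of each library's counts, in percent, taken by Fth1, Ftl1, 2 gene families and 2 classes of coding length; points are libraries, lines are means and colours are fractions. The 3 WT monosome libraries lie between 16.1% and 16.9% for Fth1, far above the total RNA libraries at 2.62% to 3.29%, and between 2.07% and 2.40% for genes over 1000 codons, below total RNA at 6.77% to 7.73%.

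Among all genes tested, 7983 of 12782 genes (62.5%) passed an adjusted p of 0.05, 4015 higher in monosome RNA (31.4%) and 3968 lower (31%). Of these, 2045 were at least 2-fold higher (16%) and 1826 at least 2-fold lower (14.3%). The libraries of the groups did not overlap for 8506 genes (66.5%), with monosome RNA higher for 32.6% and lower for 34%. The even split depends on the scaling: by library size alone 9975 genes passed, 1136 higher and 8839 lower, so that 11.4% of the calls were higher against 50.3%. With calls in most genes, a gene that passes is not unusual in itself, and the size and order of the differences carry the description. The counts given for each list are to be read against the shares of 31.4% higher and 31% lower. WT polysome RNA, compared with the same total RNA libraries, had 4214 calls (33%), 2107 higher (16.5%) and 2107 lower (16.5%). Of these, 184 (1.44%) were at least 2-fold higher and 247 (1.93%) at least 2-fold lower.

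Monosome RNA was richer in short reading frames. Genes of at most 100 codons had a median difference of 1.12 (266 genes), and the medians fell from class to class to 0.51 at 201 to 300 codons, -0.04 at 401 to 500, -0.66 at 751 to 1000 and -0.95 above 2000 codons (287 genes). In the shortest class 75.9% of genes were higher and 4.51% lower, and in the longest 3.83% were higher and 68.3% lower. By library size alone the same medians ran from 0.12 to -1.94, so that short classes still lay above long ones, with the 2 longest nearly equal, but the classes from 151 to 400 codons turn from above to below 0. Spearman's rho with coding length was -0.578 across 11651 protein-coding genes, a description only, since genes of 1 library share its depth and are not replicates. With the length of the whole transcript it was -0.586. Within the 3417 genes of 201 to 400 codons, rho was -0.209 with coding length and -0.417 with transcript length. The order is thus not particular to the reading frame. In the WT polysome comparison, which shares the total RNA libraries, the class medians ran from 0.59 to -0.48. Its rho with coding length was -0.495.

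Reads show the same order. Genes of at most 150 codons took 10.2%, 8.91% and 9.77% of the counts in total RNA and 16.4%, 15.8% and 15.9% in monosome RNA. Genes over 1000 codons took 6.77%, 7.73% and 7.26% in total and 2.40%, 2.07% and 2.13% in monosome RNA. Neither class overlapped between the groups, and the first was higher although Fth1, which is longer, took 16.6% ± 0.419 of the monosome counts. Untranslated length went with the difference as well. Among 3417 genes of 201 to 400 codons, those with a 3′ UTR of at most 250 bases had a median of 0.65 and those over 2000 bases -0.19, where library size alone gives -0.35 and -1.19. Restricting the length classes to genes with no exon overlapping another annotated gene left the gap between the shortest and the longest class at 2.13, against 2.07 for all.

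Ribosomal protein mRNAs, the core of the TOP class, were high in monosome RNA and stood above other mRNAs of their coding length. Here and in the lists below, genes of the same length are those of a like coding length. Transcript and UTR length were not matched, and their part in these distances was not tested. Of 78 tested genes of the cytosolic ribosome, 75 were higher and 0 lower, with a median of 2.24 (1.24 by library size alone), and 77 lay above the median of the other genes in their length class, by 1.37 at the median. Their share of counts was 1.56%, 1.54% and 1.66% in total and 4.16%, 4.71% and 4.38% in monosome RNA, with p = 0.1 in the exact permutation test, again the smallest that 3 against 3 allows. In polysome RNA 58 were higher than in total RNA, against 16.5% of all genes tested, with a median of 0.57.

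Rplp1 (ENSMUSG00000007892, chromosome 9, 61913284 to 61914538), a protein of the ribosomal stalk, had 502, 525 and 626 CPM in total and 7111, 8747 and 6735 CPM in monosome RNA. All 3 monosome libraries lay far above the total RNA libraries, and the difference was 3.77 ± 0.12 (adjusted p = 2.7e-12). Rps24, of the small subunit, rose from 379 ± 20.9 (SD, n = 3) to 3656 ± 457 CPM, a difference of 3.27 ± 0.11. At the other end, Rpl27 had 4.67, 5.91 and 3.91 CPM in total and 5.09, 7.25 and 2.0 CPM in monosome RNA, with full overlap. Rpl3, with 403 codons among the longest of the family, had 0.26 ± 0.12 (adjusted p = 0.0668), and -0.74 by library size alone. Many ribosomal protein genes have processed copies elsewhere in the genome, so the reads of single members are uncertain.

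The start of these mRNAs is shown for the 2 ribosomal protein genes with the largest and the 2 with the smallest difference among those with a pyrimidine run, a C followed by at least 4 C or T, exactly at the annotated start. The 25 bases from that start are from RefSeq on GRCm38.p6, with the run in capitals.
Rplp2, chr7:141447651-141447675, plus strand, difference 2.71: CTTTCgccgccggacgccgccgagg
Rpl35, chr2:39005107-39005131, minus strand, difference 2.66: CTCTTTCTCTCgaaccaggctgctt
Rps6, chr4:86857343-86857367, minus strand, difference 1.09: CTCTTTTTCgtgacgcctcccaggc
Rpl15, chr14:18270962-18270986, minus strand, difference 1.07: CTTCCTTTCCTCTggcggcagccat
Run length showed no plain order with the difference: among the other ribosomal protein genes with a run at the start, Fau has 13 bases and a difference of 2.38, and Rps21 has 5 bases and 2.10. The run was found at the annotated start of 14 of 58 ribosomal protein genes with a RefSeq start (24.1%) and of 280 of 9305 tested genes (3.01%). Ribosomal protein genes with and without it had medians of 2.25 and 2.11. Annotated starts can be some bases off, and within 10 bases of the start the shares were 60.3% and 37.6%.

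Other TOP mRNAs, among them elongation and initiation factors, had 16 of 19 higher and 2 lower, with a median of 0.96 that became -0.03 by library size alone. Their median distance above genes of the same coding length was 1.01. Of 12 with a RefSeq start, 2 had the pyrimidine run at the start (16.7%, against 3.01% of tested genes). Within 10 bases of it 5 had the run (41.7%, against 37.6%). Genes with the run within 10 bases had a median of 1.12 and those without it 1.58. Tpt1, the growth-related protein TCTP, had 135, 144 and 160 CPM in total and 1002, 1043 and 1044 CPM in monosome RNA. The monosome libraries were nearly equal to each other and well above total RNA, with a difference of 2.81 ± 0.07. Eif3k, a subunit of initiation factor 3, had 1.93 ± 0.10.

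The members that were lower were long. Eef2, the elongation factor that moves the ribosome along by a codon, had 1060, 1235 and 1200 CPM in total and 562, 731 and 670 CPM in monosome RNA (-0.83 ± 0.11). Eif4b, a cofactor of the RNA helicase of initiation, had -1.12 ± 0.09. Among 35 initiation factors 17 were higher and 9 lower, with a median of 0.39, or -0.61 by library size alone. Eif4g1, the scaffold of the cap-binding complex with 1600 codons, had 166, 175 and 165 CPM in total and 50.9, 52.3 and 47.9 CPM in monosome RNA. It fell without overlap (-1.74 ± 0.06, adjusted p = 6.93e-12), while the small translation repressor Eif4ebp1 had 1.78 ± 0.11.

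Mitochondria have their own ribosomes, and the 13 mRNAs they encode are not translated by the cytosolic ones. Of these, 11 were higher and 0 lower in monosome RNA, with a median of 1.95 (0.94 by library size alone). They took 1.65%, 2.10% and 2.19% of the counts in total and 3.69%, 4.91% and 4.27% in monosome RNA (p = 0.1, exact permutation test). mt-Nd1, a subunit of complex I, had 781, 974 and 1138 CPM in total and 7985, 9343 and 9340 CPM in monosome RNA, a difference of 3.20 ± 0.16. In polysome RNA the list had a median of -0.21.

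mt-Atp6, a subunit of ATP synthase, had the largest mitochondrial difference (4.18 ± 0.59), but its monosome libraries disagreed. Monosome replicate 1 had 1486 CPM and the other two 8600 and 7538, against 277, 331 and 365 in total RNA. All 3 were above total RNA. mt-Atp8 and mt-Nd4l, which overlap neighbouring mitochondrial reading frames, had 0.02 ± 0.27 and -0.31 ± 0.24 and did not pass. How reads of overlapping frames were assigned is not stated, so these values are uncertain.

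The nuclear genes of the same organelle were higher too, though their signs lean on the scaling. Of 74 respiratory chain subunits 62 were higher and 4 lower, with a median of 1.01, and of 77 mitochondrial ribosomal proteins 65 were higher and 1 lower, with a median of 1.09. By library size alone the medians were 0.01 and 0.09, with 22 higher against 25 lower and 26 against 27. The respiratory subunits lay 0.15 above genes of their length and the mitochondrial ribosomal proteins 0.46. Ndufc2, a short complex I subunit, had 2.46 ± 0.10, while the longer Ndufs1 (727 codons) and Atp5b (529 codons) had -0.86 ± 0.15 and -0.72 ± 0.08.

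**Figure D2:**
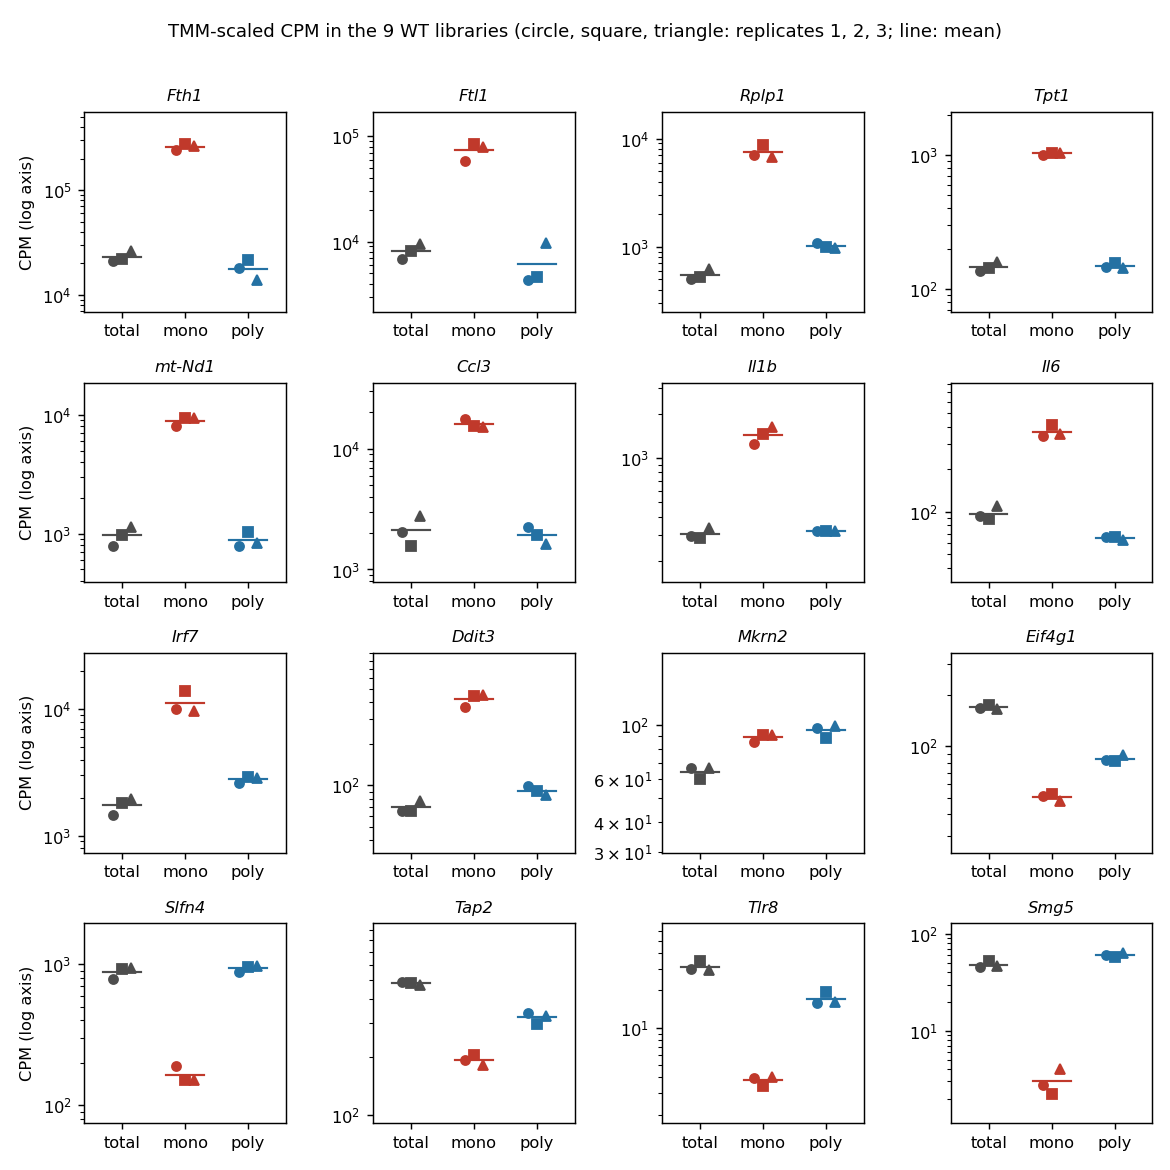
TMM-scaled CPM (log axis) of 16 genes in the 9 WT libraries by fraction; symbols are replicates and lines are means. For the 10 genes from Fth1 to Ddit3 all 3 monosome libraries lie above all total RNA libraries, as they do for Mkrn2 on this scale, though Mkrn2 turns to -0.53 by library size alone; for Eif4g1, Slfn4, Tap2, Tlr8 and Smg5 they lie below.

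Chemokines, the secreted proteins that draw leukocytes to a site of infection, were high in monosome RNA: 16 of 18 tested were higher and 0 lower, each of the 16 at least 2-fold, with a median of 1.82 (0.81 by library size alone). Their reading frames are short, with a median of 100 codons, and 16 of 17 with an annotated length lay above other genes of that length, by 1.08 at the median. Ccl3, which draws monocytes and T cells, had 2033, 1571 and 2760 CPM in total and 17679, 15429 and 15102 CPM in monosome RNA. The monosome libraries lay well above the total RNA libraries, which spread widely among themselves, and the difference was 2.92 ± 0.17 (adjusted p = 9.38e-10).

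Cxcl10, an interferon-induced ligand of CXCR3, rose from 3409 ± 395 to 17889 ± 1661 CPM (SD, n = 3; 2.39 ± 0.10). Ccl5 had 2.17 ± 0.18 and Ccl2, which recruits monocytes, 1.19. Ccl17 had the highest value of the list (3.88 ± 0.39), but at no more than 5.41 CPM in any library. The 2 that did not pass, Pf4 (0.12 ± 0.16) and Cxcl11 (0.62 ± 0.46), were both negative by library size alone. In polysome RNA 8 of the 18 passed as higher, against 16.5% of all genes tested, with a median of 0.30.

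Inflammatory cytokines followed, with 19 of 24 higher, 3 lower and a median of 1.09 (0.09 by library size alone, with 9 higher and 7 lower). They lay 0.57 above genes of their length at the median. Il6 (ENSMUSG00000025746, chromosome 5, 30013114 to 30019981), which encodes the fever and acute-phase cytokine IL-6, had 93.6, 88.4 and 109 CPM in total and 342, 409 and 354 CPM in monosome RNA. This 3.80-fold difference (1.92 ± 0.16, adjusted p = 3.42e-08) had no overlap, while the polysome libraries at 66.4, 65.8 and 63.5 CPM lay below total RNA.

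Il1b, the inflammasome substrate, had 296, 287 and 335 CPM in total and 1245, 1447 and 1626 CPM in monosome RNA (2.23 ± 0.11), and Il1a had 2.12 ± 0.09. Tnf, a first mediator of the LPS response, had 2059, 2073 and 2035 CPM in total and 4522, 3789 and 4632 CPM in monosome RNA. Its libraries were apart and the difference was 1.07 ± 0.10, which shrank to 0.08 by library size alone. The 3 lower members were Lif, an IL-6 family cytokine (-1.05 ± 0.15), Tnfsf15 (-0.73 ± 0.23, which did not pass without total replicate 2, with an adjusted p of 0.0576) and Csf1, the gene of M-CSF itself (-0.69 ± 0.07). Lif, Tnfsf15 and Csf1 have annotated 3′ UTRs of 3183, 2508 and 2114 bases, and Il6 has 430. The list was not compared by 3′ UTR length as a whole, and a part of that length in these differences was not tested.

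Interferon-stimulated genes were split, with 14 of 30 higher and 6 lower, against 31.4% and 31% of all genes tested. The median was 0.15, or -0.85 by library size alone. On the latter scale 23 were lower, as were 8839 of the 12782 genes tested. Irf7, the transcription factor that amplifies the interferon response, had 1467, 1805 and 1938 CPM in total and 10105, 14007 and 9699 CPM in monosome RNA. All monosome libraries lay far above (2.70 ± 0.14), although Irf7 has 457 codons, a length at which the median gene lay at -0.04. An exon of Phrf1 overlaps Irf7 on the other strand, and whether counting used strand is not stated.

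Isg20, an exonuclease of antiviral defence, had 2.81 ± 0.23 and Ifitm3, which blocks virus entry, 2.11 ± 0.13. Irf1, another interferon regulatory factor, had 296, 303 and 289 CPM in total and 147, 188 and 173 CPM in monosome RNA (-0.81 ± 0.08). Stat2, a signal carrier of the interferon receptor, had -0.70 ± 0.07 and the RNA sensor Oas2 -0.90 ± 0.16. Members of the interferon response lay on both sides of the typical gene.

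Feedback inhibitors and mRNA decay factors had 13 of 20 higher, 3 lower and a median of 0.30, or -0.69 by library size alone. Dusp1, the phosphatase that ends MAP kinase signals, had 1.51 ± 0.11 and Zfp36, which marks cytokine mRNAs for decay, was 2.30-fold higher. Rc3h1 (Roquin-1, 1130 codons) had -1.04 ± 0.16. Of 11 effector enzymes 6 were higher and 2 lower, with a median of 0.44, or -0.56 by library size alone. Nos2, the inducible nitric oxide synthase with 1031 codons, had 1086, 1191 and 1127 CPM in total and 656, 628 and 701 CPM in monosome RNA (-0.78 ± 0.08). Irg1, the itaconate-producing enzyme, had 0.82 ± 0.09, but -0.18 by library size alone.

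Antigen presentation genes lay below genes of their coding length more than those of any other list of at least 10 genes: 11 of 14 with an annotated length were below, by 0.48 at the median. Of 15 tested, 4 were higher and 7 lower, against 31.4% and 31% of all genes tested, with a median of -0.18. Tap1 and Tap2, the paired subunits of the peptide pump of the endoplasmic reticulum (ER), had -1.68 ± 0.28 and -1.31 ± 0.08. Tap2 had 489, 479 and 469 CPM in total and 193, 204 and 182 CPM in monosome RNA, with tight and well-separated groups. Exons of other genes on the opposite strand overlap both. The class I heavy chain H2-D1 had -0.40 ± 0.09, and B2m, the short light chain of the same complex, had 1.33 ± 0.12.

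Genes of the ER machinery were in part lower as well, with 18 of 29 lower and 9 higher, a median of -0.24, and 22 of 29 below genes of their length. Hspa5, the main ER chaperone, had 167, 340 and 194 CPM in total and 61.8, 51.1 and 164 CPM in monosome RNA, where the highest monosome value nearly met the lowest total value. Its difference was -1.34 ± 0.50 (adjusted p = 0.0294), and it did not pass without monosome replicate 1 (-1.12, adjusted p = 0.104), without monosome replicate 2 (-1.05, 0.114) or without total replicate 2 (-0.97, 0.134). The short translocon subunits Sec61b (96 codons, 1.12 ± 0.17) and Sec61g (68 codons, 1.09) were higher. Lysosomal genes were even, with 13 of 31 higher and 12 lower, against 31.4% and 31% of all genes tested, and a median of -0.04.

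mRNAs with regulatory upstream reading frames, which are translated preferentially under stress, had 4 of 20 higher, 7 lower and a median of -0.18. The shares over all genes tested were 31.4% higher and 31% lower, so these counts do not set the list apart. Ddit3, the stress factor CHOP, had 65.7, 65.2 and 77.2 CPM in total and 370, 446 and 453 CPM in monosome RNA (2.61 ± 0.10). Its groups were far apart, but annotated exons of other genes overlap it. Atf4, the master factor of that response, had 0.74 ± 0.10, or -0.26 by library size alone, and the phosphatase regulator Ppp1r15b -1.40 ± 0.09. In polysome RNA the list had 9 higher and 3 lower, with a median of 0.40. Of all genes tested 16.5% were higher and 16.5% lower in polysome RNA.

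Among housekeeping lists, those of short proteins lay high and those of giant proteins low. Small cytoskeletal and calcium-binding proteins (median 151 codons) had 20 of 22 higher and 0 lower with a median of 1.08, or 0.08 by library size alone. Tmsb4x, the actin-binding thymosin beta 4 with 44 codons, had 3697, 2783 and 2632 CPM in total and 18862, 14628 and 13057 CPM in monosome RNA (2.35 ± 0.25). Histones had 10 of 13 higher and 0 lower (median 1.05, or 0.04 by library size alone).

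Giant cytoskeletal, scaffold and chromatin proteins (median 3905 codons) had 26 of 30 lower and 2 higher, with a median of -0.96. By the 1 transcript used per gene, their coding lengths ran from 150 to 7393 codons. Myh9, a non-muscle myosin, had 122, 164 and 150 CPM in total and 27.6, 40.3 and 33.6 CPM in monosome RNA (-2.10 ± 0.15), and Lyst, the lysosomal trafficking regulator, had -2.91 ± 0.24. The 2 that were higher, Iqgap1 (0.36 ± 0.07) and Sptbn1 (0.33 ± 0.12), were -0.63 and -0.66 by library size alone. Sptbn1 did not pass without total replicate 1 (adjusted p = 0.107), monosome replicate 1 (0.111) or monosome replicate 3 (0.0557). Proteasome subunits (25 of 36 higher, 8 lower, median 0.38), SR proteins and hnRNPs (8 of 25 higher, 4 lower, 0.18), selenoproteins (7 of 12 higher, 1 lower, 0.63), glycolytic enzymes (7 of 17 higher, 6 lower, 0.18) and macrophage identity genes (14 of 23 higher, 2 lower, 0.48) had positive medians that were all negative by library size alone. Cholesterol synthesis (4 of 16 higher, 8 lower) and cell cycle genes (8 of 22 higher, 7 lower) had medians of -0.39 and -0.03. Among all genes tested 31.4% were higher and 31% lower, and a list with counts near those shares is not set apart by them.

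**Figure D3:**
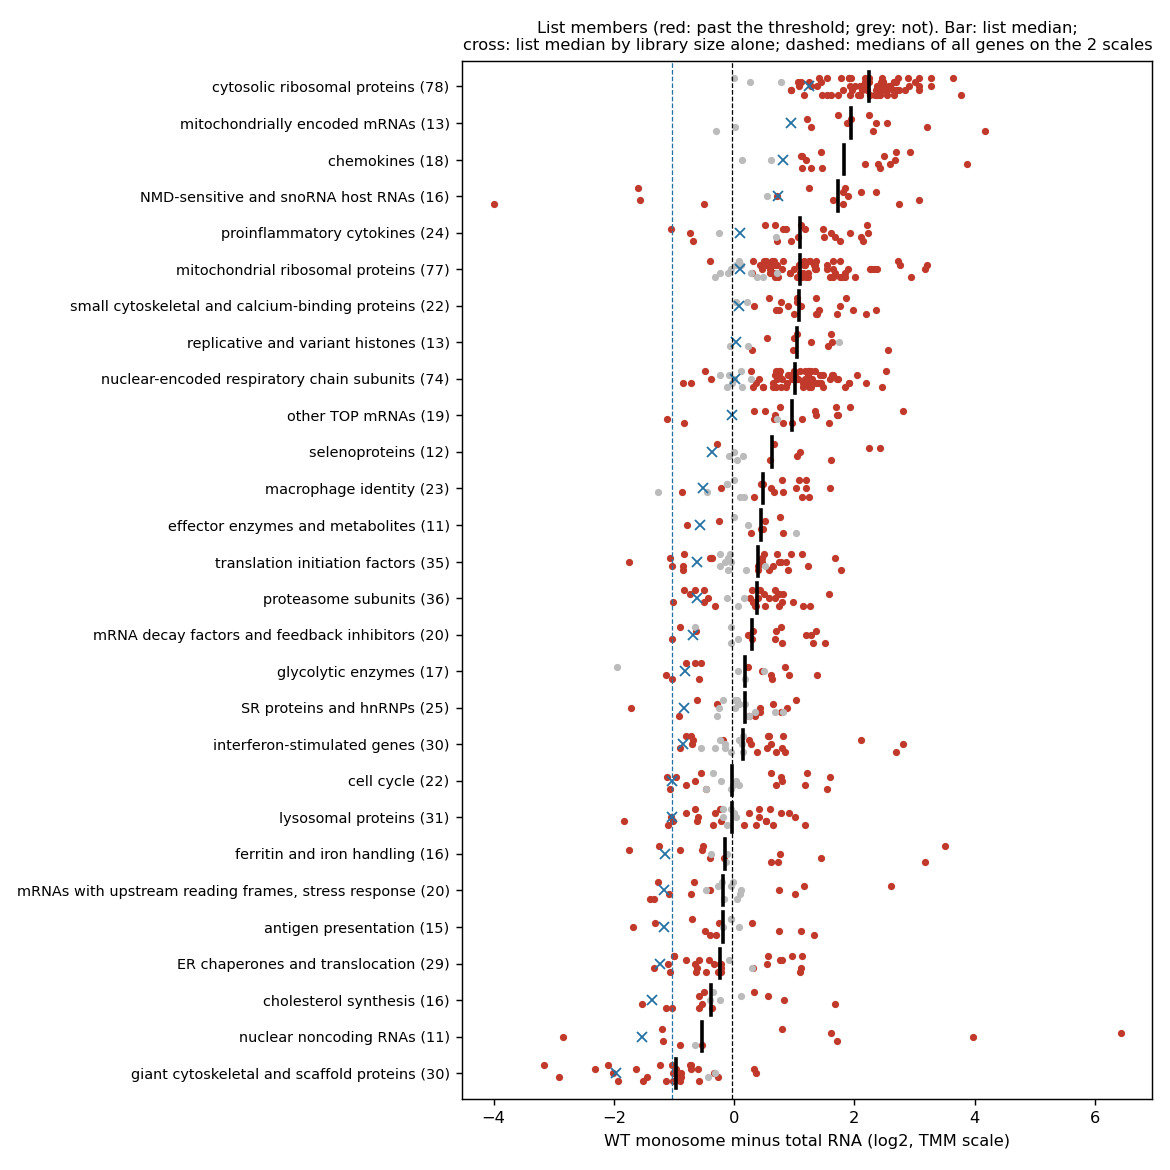
Log2 difference of WT monosome minus total RNA for the tested members of 28 gene lists, in order of their medians; red points passed the threshold, bars are list medians, crosses are list medians by library size alone, and dashed lines are the medians of all genes on both scales (-0.04 and -1.03). Ribosomal protein genes are highest, with a median of 2.24, and giant proteins lowest, with -0.96; list medians from other TOP mRNAs at 0.96 down to interferon-stimulated genes at 0.15 are negative on the unscaled axis.

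RNAs that code for no protein lay at both ends. Rmrp and Rpph1, the RNA parts of the RNases MRP and P, which are compact ribonucleoprotein particles and not mRNAs, had 3.98 ± 0.36 and 6.44 ± 0.44. Rpph1 had 0.418, 0.514 and 0.745 CPM in total and 42.7, 63.2 and 42.8 CPM in monosome RNA. It was near the limit of detection in total RNA and plain in every monosome library. Both loci overlap exons of other genes. The list of nuclear noncoding RNAs that holds them was split, with 5 of 11 higher and 5 lower and a median of -0.53. Malat1 had -1.18 ± 0.26 and Tug1 -1.21 ± 0.12, while Mir142hg, a microRNA host transcript, had 1.61 ± 0.23.

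Host transcripts of small nucleolar RNAs, which are spliced, capped and degraded when translated, were high. Gas5 had 17.5, 12.9 and 19.5 CPM in total and 63.2, 65.5 and 47.0 CPM in monosome RNA (1.82 ± 0.15), without overlap, and Snhg3 had 3.08 ± 0.36. Snhg3 was low in total RNA, at 2.38 to 5.21 CPM. Exons of Rcc1 and Snora73a overlap it on the same strand, so whose reads these are is uncertain. In the list that joins them to factors of nonsense-mediated decay, 11 of 16 were higher and 4 lower. The 4 lower ones were the long decay factor mRNAs Smg5, Smg1, Smg6 and Upf2. AW112010, a transcript induced in inflamed macrophages and annotated here as noncoding, had 1180, 918 and 1068 CPM in total and 10470, 11387 and 10187 CPM in monosome RNA (3.34 ± 0.12).

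At the low end Smg5 was the clearest. It had 45.4, 52.3 and 46.8 CPM in total and 2.79, 2.24 and 4.0 CPM in monosome RNA, a 16.0-fold lower level (-4.00 ± 0.16, adjusted p = 2.06e-11). The polysome libraries, at 60.5, 57.0 and 64.1 CPM, lay above total RNA, so the mRNA was low in the monosome fraction and not in the polysome fraction. Slfn4, an interferon-induced Schlafen protein, behaved likewise, with 788, 921 and 935 CPM in total, 189, 150 and 151 CPM in monosome and 884, 962 and 975 CPM in polysome RNA. Its difference was -2.43 ± 0.18 at 602 codons, a length class with a median of -0.33. Tlr8, an endosomal receptor of RNA, had 29.6, 34.7 and 29.3 CPM in total and 3.94, 3.43 and 4.0 CPM in monosome RNA (-3.04 ± 0.21), with 16.0 to 19.3 CPM in polysome RNA.

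Slfn4 had the smallest value among those of the 500 most abundant genes that have a symbol. Some of the others at that end encode membrane proteins, whose share among the 500 was not counted, so no trend is read from them. Plxna1, a semaphorin receptor, had -1.81 ± 0.09, Mfsd12, a lysosomal cysteine transporter, -1.77 ± 0.10, and the taurine transporter Slc6a6 -1.67 ± 0.10. Sdc3, a heparan sulfate proteoglycan, had 847, 924 and 830 CPM in total and 306, 300 and 270 CPM in monosome RNA (-1.57 ± 0.08). The groups did not overlap, and the polysome mean of Sdc3 was 918 CPM. Others of that end were Gm8995, a pseudogene (-1.60), and Lgals3bp, a secreted glycoprotein (-1.44). At the high end of the same 500 genes, Nupr1, a short stress-induced chromatin protein, had 118, 145 and 162 CPM in total and 1514, 1451 and 1899 CPM in monosome RNA (3.52 ± 0.14).

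Several of the most extreme values rest on gene models that share exons. Sla2, with 0.248 to 0.418 CPM in total and 409 to 483 CPM in monosome RNA (10.35 ± 2.15), overlaps Rab5if on the other strand, and Gm28037, at 0 in total RNA but for 0.0697 CPM in 1 library and at 56.8 to 112 CPM in monosome RNA, overlaps Rpl24. In the monosome libraries labelled KO, Sla2 had 522, 0.13 and 490 CPM, so its value did not repeat in every library. Gm38394 shares exons with Zc3h11a and had 50.4 to 61.7 CPM in total but at most 0.143 CPM in monosome RNA. Adnp, which shares exons with another gene model, had 40.7 to 49.4 CPM in total and at most 0.395 CPM in monosome RNA. Plagl2 had 12.1 CPM in one total RNA library and 142 and 155 in the others. In all, 40.3% of tested genes have an exon that overlaps another annotated gene. The positions do not say whose reads these are, and these genes are named for their values without a reading of their function.

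Mkrn2 itself (ENSMUSG00000000439, chromosome 6, 115601902 to 115622624) had 66.9, 59.7 and 66.3 CPM in WT total and 85.3, 91.2 and 91.1 CPM in WT monosome RNA. The libraries did not overlap, and the difference was 0.47 ± 0.08 (adjusted p = 0.00011), or -0.53 by library size alone. In the libraries labelled KO, Mkrn2 RNA was still present, at 57.1 ± 3.45 CPM in total and 68.8 ± 5.85 CPM in monosome RNA (SD, n = 3). The labels do not say which exons were deleted.

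The comparison was repeated between the total and monosome libraries labelled KO, none of which enters the WT difference. All 18 libraries share the filter and the estimate of spread behind the calls, so the calls of the genotypes are not fully separate. They gave 8354 calls (65.4%), 4140 higher (32.4%) and 4214 lower (33%). Of the 7983 WT calls, 7920 (99.2%) had the same sign in KO, and 7175 were called in both with the same sign, which is 89.9% of the WT calls and 85.9% of the KO calls. Only 5 were called with opposite signs. Of 3871 WT calls of at least 2-fold, 3254 were called at least 2-fold the same way in KO (84.1% of those in WT, 76.1% of those in KO). Across the 12782 genes Pearson's r was 0.886 and Spearman's rho 0.921, a description across genes that share libraries.

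The main groups had like values in KO. Ribosomal protein genes had a median of 2.24 with 76 of 78 higher, mitochondrially encoded mRNAs 2.12, chemokines 2.0, cytokines 1.16 and giant proteins -1.14. Fth1 had 3.67, Rplp1 3.73, Ccl3 2.96, Il6 1.53, Irf7 2.62, Smg5 -3.60 and Slfn4 -2.91. The Spearman correlation with coding length was -0.587 in KO. A test of the difference between the genotypes' ratios passed for 7 genes (0.0548%), 1 with a higher ratio in KO (0.00782%), Rsu1, and 6 with a lower one (0.0469%). The count was 675 at an unadjusted p of 0.05 and 19 with DESeq2. Without single libraries it lay between 4, without WT total replicate 1, and 22, without KO monosome replicate 3.

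**Figure D4:**
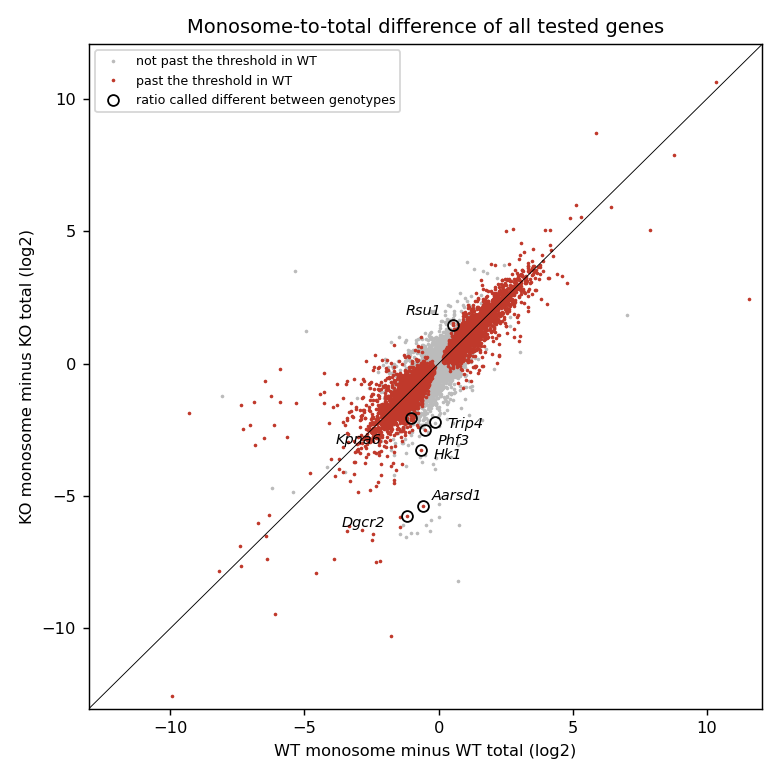
Log2 difference of monosome minus total RNA for each of 12782 genes in WT (horizontal) and in libraries labelled KO (vertical); red points passed the threshold in WT, circles mark the 7 genes whose ratio was called different, and the line marks equal values. Most genes lie along the line (Pearson's r = 0.886), and 6 of the 7 circled genes lie below it.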

How the data were processed

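The authors deposited 1 table of 34745 genes with whole-number counts and FPKM per library. Per the submitters' processing notes, fastp 0.23.2, HISAT2 2.0.4 and StringTie 1.3.0 were used. Build, strandedness and multi-read handling are not given in the sources used here. The deposited FPKM imply gene lengths above the span of the gene for 1057 tested genes and were not used for levels. Counts were analysed with edgeR 4.0.16 in R 4.3.3: filterByExpr (12782 genes), TMM, 1 mean per group over all 18 libraries, quasi-likelihood F test (two-sided), Benjamini-Hochberg over all tested genes, threshold 0.05. The fit was tested on simulated data in which few genes differed, evenly up and down, so that test does not bear on the scaling between these fractions. Coding and UTR lengths are from 1 GENCODE vM21 transcript per gene. Alternatives were RLE, library size alone, no filter, a mean of at least 5 CPM, only the groups compared, a replicate block, voom with quality weights, DESeq2 1.42.0 and leaving out each library. A comparison restricted to genes without exon overlap was chosen after seeing the data. Same-numbered WT total and monosome libraries deviated together with r of 0.0549, -0.00602 and -0.00268. Differently numbered ones had r from -0.0464 to 0.0511. The numbers gave no clear sign of pairing, but the spread between libraries can hide it, so pairing is not excluded. No 2 replicates of a group were alike within sampling noise (chi-square per degree of freedom 13.2 to 26.3). The libraries and gene lists were chosen with earlier results of these data known. Genes named are Mkrn2, Il6 and called genes of largest and smallest difference. These called genes were at or above the median level, with at least 50 counts in each library of the higher group and no overlap. Also named are the largest and smallest differences among the 500 most abundant genes with a symbol, without those conditions. The 2 largest and 2 smallest of each list complete the rule. Of the 166 so named a part is described, and further list members were chosen after their values were seen. Figures were drawn with matplotlib 3.10.9.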

Additional observations from a re-analysis of the deposited data

Results flagged for a closer look

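The monosome-to-total ratio was called different between the genotype labels (edgeR's quasi-likelihood test of the interaction, adjusted p under 0.05) for 7 genes, and each is listed with its log2 difference, KO minus WT. Aarsd1, an aminoacyl-tRNA editing protein, had -4.79 ± 0.29 (SE), with 37, 40 and 40 counts in the WT monosome libraries and 2, 1 and 1 in those labelled KO. Hk1, the hexokinase, had -2.61 ± 0.11, with 512 to 647 counts in WT and 82 to 97 in KO monosome RNA. Dgcr2 had -4.57 ± 0.66, with 88, 144 and 138 counts against 0, 0 and 15. Trip4, a transcription coactivator, had -2.08 ± 0.26, Phf3, a chromatin protein, -2.02 ± 0.19, and Kpna6, a nuclear import receptor, -1.04 ± 0.16. Rsu1, a Ras suppressor, had 0.91 ± 0.14, with 400 to 500 counts in WT and 505 to 547 in KO monosome RNA, and 684 to 753 against 417 to 479 in total RNA. Exons of other genes overlap Aarsd1, Hk1 and Dgcr2. Groups of 3 libraries were too small for the outlier test used on larger groups.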

How the results depend on the processing

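The count of WT genes past the threshold stayed within 1.5 times its main value in every setting (6300 to 9975), and without scaling beyond library size the split was 1136 higher and 8839 lower. Of 166 named genes, the call and sign were kept in 166 with RLE, 164 of 165 with DESeq2, 156 with voom and quality weights, 154 to 163 without each single library, and 126 without scaling. Without scaling 22 turned from positive to negative: Mkrn2 (-0.53), Rpl3 (-0.74), mt-Atp8 (-0.99), Hnrnpab (-0.13), Pf4 (-0.88), Irg1 (-0.18), Coro1a (-0.97), Myl6 (-0.78), Sptbn1 (-0.66), Iqgap1 (-0.63), Pgam1 (-0.08), Mvd (-0.17), Fcgr1 (-0.33), S100a8 (-0.70), Ccr7 (-0.83), Dcstamp (-0.90), Ctsk (-0.36), H1fx (-0.75), Cxcl11 (-0.38), Thy1 (-0.06), Cd79b (-0.67) and Cd79a (-0.19). That setting moves the typical gene by about 1 log2 unit, and every one of these had a difference smaller than that. Calls lost when 1 library was left out include Hspa5, Ncoa4, Meg3, Tnfsf15, Cybb, Mrpl3, Sptbn1, Xcr1 and Gm20547. With the replicate block the count was 8008 and 161 of 166 named genes were kept. Genes with no call changed sign in further settings: mt-Atp8 (-0.04) and Coro1a (-0.03) without the filter, and H2afz with the block (0.06) and with voom (0.07). Without single libraries 9 uncalled genes took both signs: Rpl27 (-0.48 to 0.36), mt-Atp8 (-0.16 to 0.23), H2afz (-0.38 to 0.79), H1fx (-0.41 to 0.53), Pf4 (-0.01 to 0.18), Coro1a (-0.10 to 0.12), Ccr7 (-0.01 to 0.37), Cd79b (-0.47 to 0.62) and Dcstamp (-0.27 to 0.29). The count of genes whose ratio differed between genotypes was 7 and moved to 11 with only the groups compared, to 19 with DESeq2, and to between 4 and 22 without single libraries; the cause was not tested. The difference in the share of ribosomal protein counts was 3.92 percentage points outside Fth1 and mitochondrially encoded genes, against 2.83 of all counts. With 9190034 counts in the shallowest library, differences of genes with few counts were not detectable at this depth and may exist.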

Other observations

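By annotated biotype, the tested lincRNAs (209 genes) had a median log2 difference of 0.78, with 105 higher and 30 lower, processed transcripts (144) 0.93, antisense transcripts (350) 0.39 and protein-coding genes (11670) -0.07. By library size alone the medians were -0.22, -0.06, -0.58 and -1.06. Of the antisense transcripts, 322 have an exon overlapping another gene.

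Acp5, the tartrate-resistant acid phosphatase known from osteoclasts, had 402, 416 and 401 CPM in total and 1433, 1794 and 1758 CPM in monosome RNA (2.03 ± 0.08), and Ctsk, the osteoclast protease, had 0.64 ± 0.09, or -0.36 by library size alone. Macrophages express both genes too. The 5 osteoclast markers summed to 1165 to 1262 unscaled CPM in total and 1500 to 1648 in monosome RNA.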
